A study of Homo sapiens with 9 samples.

Results

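The 9 genes described here are known for the handling of vitamin A, and their RNA was counted in LX2 cells, an immortalised human hepatic stellate cell line. They are LRAT, STRA6, ALDH1A1, ALDH1A3, DHRS3, CRABP2 and the retinoic acid receptors RARA, RARB and RARG. They were chosen by symbol, since vitamin A handling marks quiescent stellate cells, and with earlier results of these data known. Each matched 1 of the 36601 human Ensembl gene IDs in the count files. The cells were transfected with siRNA against YAP (siYAP), siRNA against TAZ (siTAZ) or non-targeting siRNA (siNT), each at 20 nM for 7 days in medium with serum, and each group held 3 libraries of RNA. All groups share the LX2 background, the transfection reagent and the culture medium. The labels call the 3 libraries of a group biological replicates and do not say whether they came from separate cultures, so each p-value covers the library-to-library spread alone, which may be technical. LX2 is a single proliferating line in long-term culture, not a freshly isolated stellate cell.

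Stellate cells are the body's main vitamin A store. STRA6, a membrane receptor, lets retinol into the cell. LRAT, lecithin retinol acyltransferase, esterifies it for storage in lipid droplets. Retinol can instead be oxidised to retinal and then, by the retinaldehyde dehydrogenases ALDH1A1 and ALDH1A3, to retinoic acid, while DHRS3 reduces retinal back to retinol. CRABP2 carries retinoic acid to the nucleus, where RARA, RARB and RARG, paired with retinoid X receptors, bind paired copies of a core DNA word and turn on target genes. RARB and DHRS3 are themselves known retinoic acid targets, and activated stellate cells are known for losing their retinyl ester stores.

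Promoter sequences are shown because RARB, the receptor with the largest change after siYAP, is the textbook example of a gene with a retinoic acid response element. Windows from 250 bases before to 50 bases after each RefSeq start (GRCh38.p14) were found for all 9 genes, 20 windows in all. The core word searched was AGGTCA, with AGTTCA accepted as a variant, likewise GGGTCA as another variant and GGTTCA as the last of them, on both strands. In the 20 windows its matches did not overlap those of the TEAD word below. At least 1 core word was present in 38.6% of all windows searched and in 9 of the 20 windows, from 5 of the 9 genes. A direct repeat of them with a spacer of 5 bases was present in 1 of the 20 windows, that of RARB at chr3:25428013-25428312 on the plus strand, from base -53 to base -37 before the start. Of 35116 windows of the same length, 31 held such a repeat (0.0883%). The RARB window follows, with the repeat and its spacer in capitals.

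RARB: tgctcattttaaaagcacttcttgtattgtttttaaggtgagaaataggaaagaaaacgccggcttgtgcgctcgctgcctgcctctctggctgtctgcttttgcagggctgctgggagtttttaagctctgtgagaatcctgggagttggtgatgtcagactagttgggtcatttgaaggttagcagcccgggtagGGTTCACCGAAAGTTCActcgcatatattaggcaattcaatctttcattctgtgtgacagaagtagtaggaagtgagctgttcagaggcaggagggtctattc

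CYP26A1, which encodes a retinoic acid-degrading enzyme, had the same kind of repeat on the opposite strand, from base -90 to base -74, in its window at chr10:93073643-93073942 on the plus strand. It is shown for comparison with 8 bases on either side.

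CYP26A1: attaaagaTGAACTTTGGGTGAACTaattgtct

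The word GGAATG, read as CATTCC when it lies on the other strand, is the core of the TEAD site through which YAP and TAZ act. It was found in 14.0% of all windows and in 5 of the 20 windows, those of DHRS3, RARA and RARB. The matches are shown in capitals with 8 bases on either side. They are matches of letters, and no binding was measured.

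DHRS3, window at chr1:12616740-12617039, minus strand: atttcccaCATTCCtgcctccc
DHRS3, window at chr1:12596564-12596863, minus strand: ctgcttttCATTCCaaagggca
RARA, window at chr17:40341916-40342215, plus strand: acgcgccgGGAATGggttaagc
RARB, window at chr3:25340552-25340851, plus strand: cacttcagCATTCCtattcttg
RARB, window at chr3:25458060-25458359, plus strand: atcacaatGGAATGttttctgt

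The windows of LRAT, ALDH1A1, ALDH1A3 and RARG held neither word, and that of CRABP2 held a single GGTTCA at base -249. The RARB window with the repeat held no TEAD word. Counts were summed over each gene, so the start site that each transcript used is not known.

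The libraries held 16498508 to 18752805 counts in genes, and 15560 genes had enough counts to be tested. Levels are given as CPM, read counts scaled to a common library size after TMM, a scaling that aligns the bulk of genes between libraries. With 3 counts as the floor, the limit per library was 0.157 to 0.177 CPM, which covers counting error only. A gene was called when edgeR's two-sided quasi-likelihood test gave a Benjamini-Hochberg adjusted p under 0.05 over all genes tested. The targeted transcripts were lowest where targeted: YAP1 averaged 26.3 ± 1.49 CPM after siYAP against 209 ± 4.11 CPM after siNT, and WWTR1, the TAZ gene, averaged 9.53 ± 0.917 CPM after siTAZ against 62.0 ± 5.50 CPM after siNT (SD, n = 3 each). WWTR1 and TEAD3 rose after siYAP (log2 fold change 0.29 and 0.43), and TEAD1, TEAD2 and TEAD4 fell (log2 -0.54, -1.16 and -0.29). Of the 6 genes YAP1, WWTR1 and TEAD1 to TEAD4, 1 rose and 5 fell after siTAZ. Among all genes tested, 16.4% rose and 18.2% fell after siTAZ. Reads in no annotated gene were 6.01% to 7.49% of the siYAP libraries, 5.53% to 5.63% of the siTAZ libraries and 4.73% to 5.13% of the siNT libraries. Collagen markers of the labelled cell type were abundant, with COL1A1 at 2046 ± 46.2 CPM after siYAP, 6255 ± 38.3 CPM after siTAZ and 4168 ± 38.3 CPM after siNT (SD, n = 3 each). The collagen genes did not move together after siYAP: COL1A1 and COL3A1 fell (log2 fold change -1.03 and -0.64) and COL1A2 rose (log2 1.07). DES (desmin) had 0 to 14 counts per library, and GFAP, another stellate marker, had 2 to 13. In bulk RNA, fewer cells transcribing a gene and less RNA per cell cannot be told apart.

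Transcripts of the storage enzyme were not detected. LRAT (chromosome 4, 154626945 to 154753118, plus strand; positions here and below are those of GENCODE 29 on GRCh38) had 0 counts in all 9 libraries, which allows up to 0.0186 CPM over the 9 libraries together. ALDH1A1 (chromosome 9, 72900662 to 73080442, minus strand) had 1 count in siTAZ replicate 2 and 0 in the other 8 libraries. LRAT and ALDH1A1 were therefore not tested, and neither silencing brought them to the floor of 3 counts in any library. The other 7 genes passed the filter on low counts.

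After siYAP, RARB, RARG, CRABP2 and ALDH1A3 fell and DHRS3 and RARA rose, so that 6 of the 7 tested genes were called and STRA6 was not. Among all genes tested, 67.1% were called in this comparison, 33.8% higher and 33.4% lower. The siYAP and siNT libraries did not overlap for 5 of the 7 tested genes, against 70.5% of all genes tested. With most of the transcriptome called, neither count sets the retinoid genes apart. After siTAZ, DHRS3, RARB and RARA rose and CRABP2 fell, 4 of the 7 tested genes, against 34.6% of all genes tested (16.4% higher and 18.2% lower). The siTAZ and siNT libraries did not overlap for these same 4 genes, against 44.6% of all genes tested. The 7 tested genes had a median log2 fold change of -0.75 after siYAP and 0.18 after siTAZ, beside 0.02 and 0.01 over all genes tested. These 7 are the genes left by the filter on low counts, not all 9, and the 9 were chosen with earlier results of these data known. Both comparisons use the same siNT libraries.

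**Figure D1:**
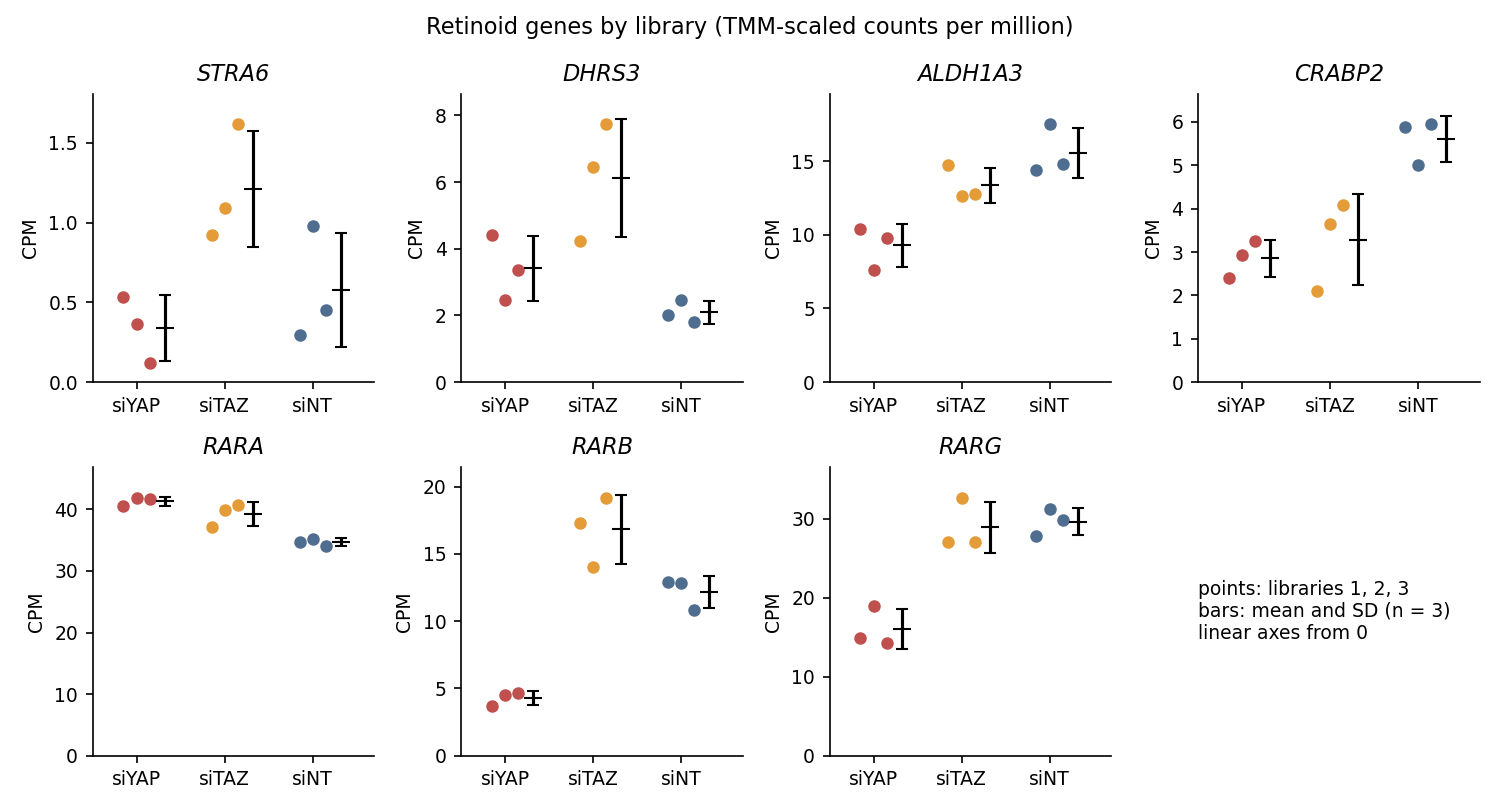
CPM (TMM-scaled, linear axes from 0) of the 7 tested genes in each library, with points for replicates 1 to 3 and bars for the mean and SD (n = 3). RARB lies at 3.72 to 4.67 CPM after siYAP, below every siTAZ and siNT library, and DHRS3 is highest after siTAZ.

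STRA6, the retinol uptake receptor (chromosome 15, 74179466 to 74212267, minus strand), was near the floor. It had 10, 7 and 2 counts after siYAP, 17, 20 and 28 after siTAZ, and 5, 17 and 8 after siNT. In CPM this was 0.532, 0.365 and 0.118 after siYAP, 0.920, 1.09 and 1.61 after siTAZ, and 0.295, 0.978 and 0.453 after siNT. The siYAP and siNT libraries overlapped, and a siNT library lay above the lowest siTAZ library. The log2 fold change was -0.73 ± 0.61 (SE) after siYAP (adjusted p = 0.28, 95% interval -1.96 to 0.50) and 1.06 ± 0.52 after siTAZ (adjusted p = 0.102, 95% interval 0.02 to 2.09). Both intervals are wide, and both values rest on single libraries. With each library left out in turn, the siTAZ value ran from 0.75 (adjusted p = 0.371, without siNT replicate 1) to 1.67 (adjusted p = 0.0441, without siNT replicate 2), the only one that passed. The siYAP value ran from -1.20 (adjusted p = 0.151, without siYAP replicate 1) to -0.13 (adjusted p = 0.887, without siNT replicate 2), and 0 of these passed.

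DHRS3, the retinal reductase (chromosome 1, 12567910 to 12617731, minus strand), had 4.42, 2.45 and 3.37 CPM after siYAP, 4.22, 6.44 and 7.73 CPM after siTAZ, and 2.004, 2.47 and 1.81 CPM after siNT. All siTAZ libraries lay above all siNT libraries, whereas siYAP replicate 2 lay within the siNT range. DHRS3 rose 2.91-fold after siTAZ (log2 1.54 ± 0.25, SE; adjusted p = 3.97e-07), and 1.68% of all genes tested had a larger change in that comparison. It rose 1.62-fold after siYAP (log2 0.70 ± 0.26; adjusted p = 0.0139). The siYAP call was lost without siYAP replicate 1 (log2 0.46, adjusted p = 0.157) or siNT replicate 3 (log2 0.59, adjusted p = 0.0667) and with limma-voom (adjusted p = 0.0575).

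ALDH1A3 (chromosome 15, 100877714 to 100916626, plus strand) makes retinoic acid from retinal, as ALDH1A1 does. It had 10.4, 7.62 and 9.81 CPM after siYAP, 14.7, 12.6 and 12.7 CPM after siTAZ, and 14.4, 17.5 and 14.8 CPM after siNT. The siYAP libraries lay below all others, and the siTAZ and siNT libraries overlapped. ALDH1A3 fell 1.68-fold after siYAP (log2 -0.75 ± 0.13, SE; adjusted p = 5.96e-07). After siTAZ its log2 fold change was -0.22 ± 0.12 (adjusted p = 0.167, 95% interval -0.47 to 0.03). An antisense gene, AC015712.2, covers 27.5% of the exon bases of ALDH1A3; it had 153, 191 and 161 counts after siYAP, 178, 163 and 125 after siTAZ, and 92, 101 and 100 after siNT. Whether strand was used in counting is not known, so reads of the pair may have been mixed or set aside as ambiguous, and the ALDH1A3 level is uncertain. Its relative ALDH1A2, the retinaldehyde dehydrogenase of the embryo, averaged 1.67 ± 0.262 CPM after siYAP, 2.36 ± 1.00 CPM after siTAZ and 3.10 ± 0.392 CPM after siNT (SD, n = 3 each). ALDH1A2 fell after siYAP (log2 -0.88 ± 0.30, SE; adjusted p = 0.00786) and was not called after siTAZ (log2 -0.40 ± 0.29, adjusted p = 0.31).

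CRABP2, the retinoic acid carrier (chromosome 1, 156699606 to 156705816, minus strand), was lower after both silencings. It had 2.39, 2.92 and 3.25 CPM after siYAP, 2.11, 3.66 and 4.10 CPM after siTAZ, and 5.89, 5.01 and 5.94 CPM after siNT. No siYAP or siTAZ library reached the lowest siNT library. CRABP2 fell 1.97-fold after siYAP (log2 -0.98 ± 0.23, SE; adjusted p = 0.000137) and 1.71-fold after siTAZ (log2 -0.77 ± 0.22; adjusted p = 0.00434). The siTAZ call was lost without siTAZ replicate 1, the lowest of that group (log2 -0.53, adjusted p = 0.0718). Few reads were counted for the other carriers of retinoic acid, and CRABP1 had 0 to 4 counts per library. FABP5 had 0.577 ± 0.376 CPM after siYAP, 0.542 ± 0.337 CPM after siTAZ and 0.948 ± 0.581 CPM after siNT (SD, n = 3 each). How reads matching more than 1 gene were counted is not known, so these levels may be too low.

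RARB (chromosome 3, 25174332 to 25597932, plus strand), the retinoic acid-inducible receptor whose promoter repeat is printed above, went opposite ways after the 2 silencings. It had 3.72, 4.54 and 4.67 CPM after siYAP, 17.3, 14.0 and 19.2 CPM after siTAZ, and 12.9, 12.8 and 10.8 CPM after siNT. The groups did not overlap in any pairing. RARB fell 2.83-fold after siYAP (log2 -1.50 ± 0.15, SE; adjusted p = 9.85e-14), and 10.6% of all genes tested had a larger change. It rose 1.38-fold after siTAZ (log2 0.46 ± 0.13; adjusted p = 0.00266). Exons of RARB share 28 bases with TOP2B on the opposite strand, 0.757% of the RARB exon bases.

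RARG (chromosome 12, 53210567 to 53232980, minus strand), the receptor best known from epithelia, had 14.95, 19.0 and 14.3 CPM after siYAP, 27.0, 32.7 and 27.1 CPM after siTAZ, and 27.8, 31.3 and 29.8 CPM after siNT. The siYAP libraries lay below all others. RARG fell 1.84-fold after siYAP (log2 -0.88 ± 0.10, SE; adjusted p = 6.08e-12). After siTAZ its log2 fold change was -0.04 ± 0.09 (adjusted p = 0.811, 95% interval -0.22 to 0.15), and its sign turned without siNT replicate 2 or without siTAZ replicate 1 or 3.

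RARA (chromosome 17, 40309192 to 40357643, plus strand), the widely expressed receptor, had 40.5, 41.9 and 41.6 CPM after siYAP, 37.1, 39.97 and 40.8 CPM after siTAZ, and 34.7, 35.3 and 34.0 CPM after siNT. Every siYAP and siTAZ library lay above every siNT library. RARA rose 1.19-fold after siYAP (log2 0.25 ± 0.07, SE; adjusted p = 0.00146), a change smaller than that of 69.9% of all genes tested. It rose 1.13-fold after siTAZ (log2 0.18 ± 0.07; adjusted p = 0.0441), a call near the threshold that was lost with RLE size factors (adjusted p = 0.0514), with DESeq2 (adjusted p = 0.0819), without the filter on low counts (adjusted p = 0.0887) and on leaving out siNT replicate 1, 2 or 3 or siTAZ replicate 2 or 3 (adjusted p = 0.0712 to 0.146). RARA-AS1, an antisense gene over 11.8% of the RARA exon bases, had 5 to 22 counts per library.

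**Figure D2:**
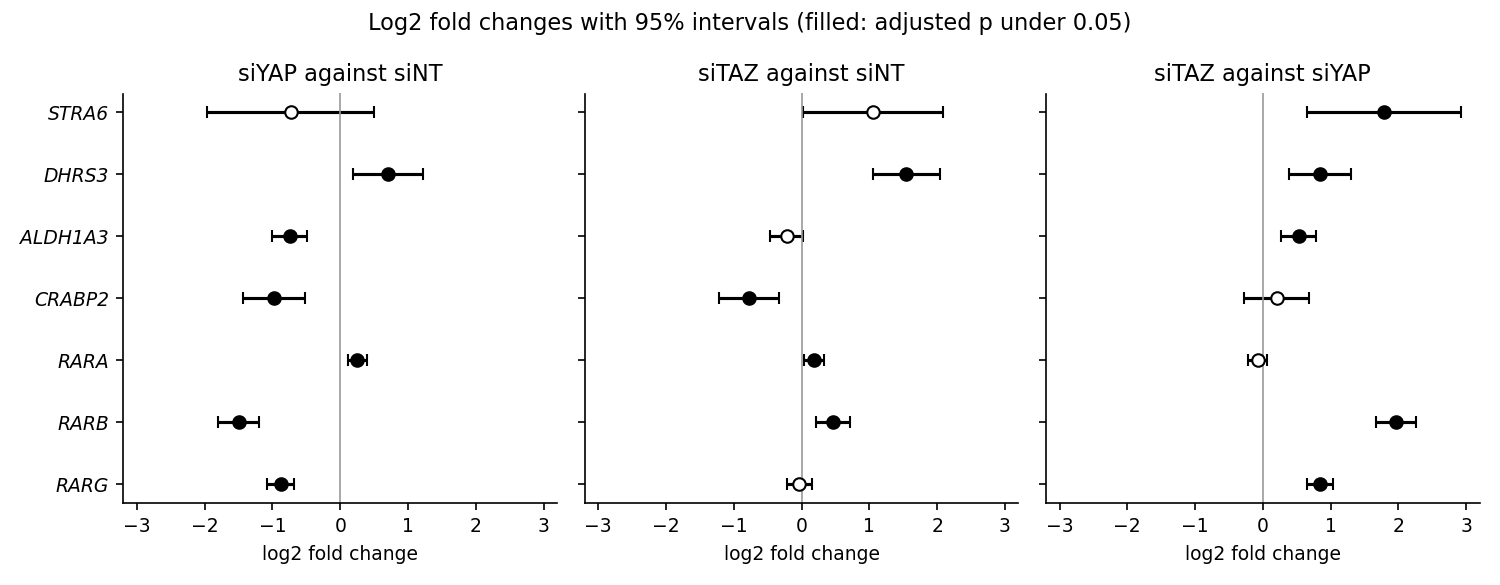
Log2 fold changes of the 7 tested genes for siYAP against siNT (left), siTAZ against siNT (middle) and siTAZ against siYAP (right), with 95% intervals from the edgeR fit; filled points passed at an adjusted p under 0.05. RARB lies at -1.50 after siYAP and at 0.46 after siTAZ, and the STRA6 intervals are the widest.

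Compared directly, 5 of the 7 tested genes were higher after siTAZ than after siYAP and 0 were lower, with 66.2% of all genes tested called (33% higher and 33.2% lower). This comparison tests the difference between the knockdown effects, and its libraries are those of the comparisons above. The libraries did not overlap for 4 of the 7 tested genes, against 68.2% of all genes tested. RARB was 3.899-fold higher after siTAZ than after siYAP (log2 1.96 ± 0.15, SE; adjusted p = 4.82e-19), and STRA6 was 3.46-fold higher (log2 1.79 ± 0.57; adjusted p = 0.00317). RARG was 1.79-fold higher (log2 0.84 ± 0.10; adjusted p = 2.35e-11), as was DHRS3 (log2 0.84 ± 0.23; adjusted p = 0.000912), and ALDH1A3 was 1.44-fold higher (log2 0.53 ± 0.13; adjusted p = 0.000286). For DHRS3 the libraries overlapped, with 4.22 CPM in siTAZ replicate 1 and 4.42 CPM in siYAP replicate 1. CRABP2 did not pass (log2 0.20 ± 0.24, adjusted p = 0.468, 95% interval -0.28 to 0.68), nor did RARA (log2 -0.07 ± 0.07, adjusted p = 0.368, 95% interval -0.21 to 0.07).

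Levels of different genes were set side by side per kilobase of exon (CPM divided by the length of all GENCODE 29 exons of the gene, which may include exons not used in LX2 cells). RARA was highest in every group, at 8.74 ± 0.155 CPM per kb after siYAP, 8.31 ± 0.405 after siTAZ and 7.33 ± 0.132 after siNT (SD, n = 3 each). After siYAP the order went on with RARG (3.14 ± 0.496), CRABP2 (2.60 ± 0.393), ALDH1A3 (1.61 ± 0.256), RARB (1.17 ± 0.139) and DHRS3 (1.124 ± 0.323), where RARG and CRABP2 overlapped, as did RARB and DHRS3. After siTAZ it was RARG (5.64 ± 0.630), RARB (4.55 ± 0.700), CRABP2 (2.99 ± 0.948), ALDH1A3 (2.31 ± 0.205) and DHRS3 (2.02 ± 0.584), and CRABP2 overlapped ALDH1A3, as ALDH1A3 did DHRS3. After siNT it was RARG (5.78 ± 0.340), CRABP2 (5.10 ± 0.480), RARB (3.30 ± 0.322), ALDH1A3 (2.697 ± 0.291) and DHRS3 (0.691 ± 0.112), and RARB and ALDH1A3 overlapped. STRA6 came seventh in each group, at 0.0440 to 0.157 CPM per kb on average. RARB thus stood at place 4 after siNT, 3 after siTAZ and 5 after siYAP. These moves are small. After siTAZ RARB passed CRABP2, whose own level was lower there, and after siNT RARB overlapped ALDH1A3.

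The make-up of the retinoic acid receptors differed after siYAP, while the siTAZ and siNT libraries overlapped in the share of each receptor. RARA made up 67.1% ± 2.49 of the summed RAR level per kilobase after siYAP, 44.9% ± 0.674 after siTAZ and 44.7% ± 0.786 after siNT (SD, n = 3 each). RARB made up 8.94% ± 0.880 after siYAP, 24.6% ± 3.67 after siTAZ and 20.1% ± 1.59 after siNT. RARG made up 24.0% ± 2.64 after siYAP, 30.5% ± 3.35 after siTAZ and 35.3% ± 1.65 after siNT. The summed level was 13.0 ± 0.671 CPM per kb after siYAP, 18.5 ± 0.658 after siTAZ and 16.4 ± 0.563 after siNT. These shares are descriptions, with no test of their own, and how reads shared by the related receptor genes were counted is not known.

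**Figure D3:**
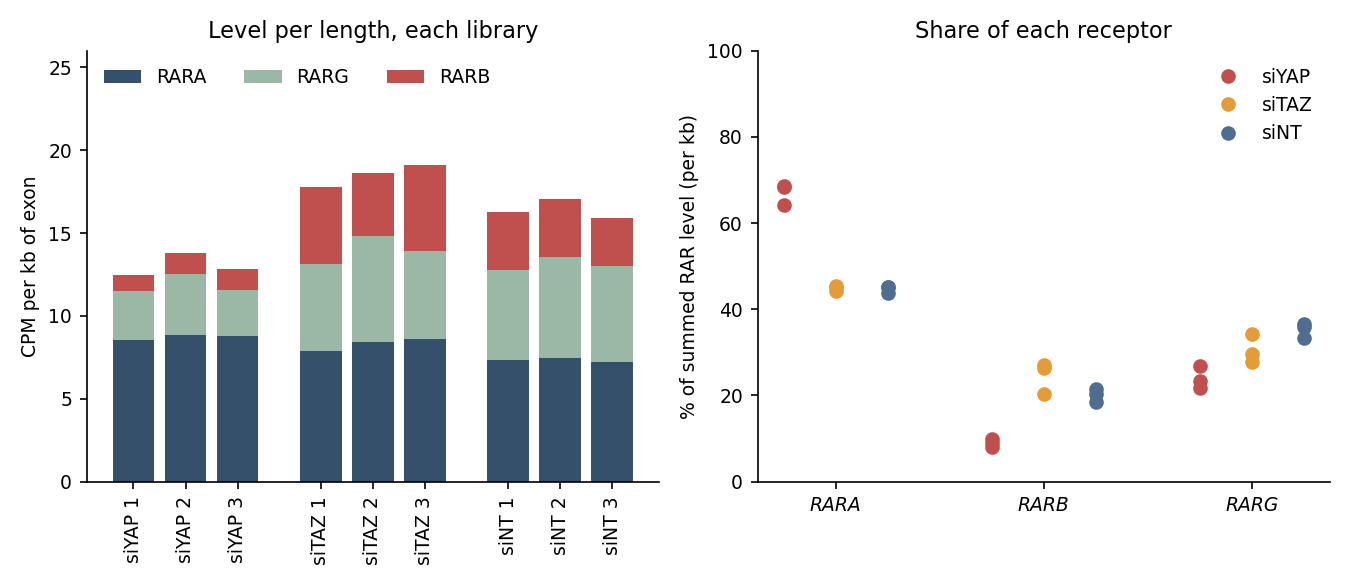
Left, the level of RARA, RARG and RARB (CPM per kb of exon) stacked for each library; right, each receptor's share of their summed level, with a point per library. RARA makes up 67.1% on average after siYAP and 44.7% after siNT, and RARB 8.94% after siYAP and 20.1% after siNT.

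Other genes of the pathway were taken from lists of known function; the 9 genes are left out of the counts that follow, which stand beside 33.8% of all genes tested higher and 33.4% lower after siYAP, and 16.4% higher and 18.2% lower after siTAZ. Of 11 transport and binding genes, 5 were tested, and 3 fell and 0 rose after siYAP, while 0 were called after siTAZ. SCARB1, a lipoprotein receptor that also takes up carotenoids, fell after siYAP to 41.4 ± 2.43 CPM against 58.8 ± 1.89 CPM after siNT (SD, n = 3 each; log2 -0.50 ± 0.07, SE). Of 12 ester storage and hydrolysis genes, 11 were tested; 3 rose and 5 fell after siYAP, and 3 rose and 3 fell after siTAZ. DGAT2, an acyltransferase of triglyceride synthesis, and PLIN2, a lipid droplet coat protein, rose after siYAP (log2 1.36 ± 0.10 and 1.195 ± 0.08), and the lipases LIPE, PNPLA2 and LIPA fell (log2 -0.46, -0.39 and -0.37). After siTAZ DGAT2 fell (log2 -0.44 ± 0.11) and DGAT1, an acyltransferase that can also esterify retinol, rose (log2 0.30 ± 0.10), as did LIPA (log2 0.15 ± 0.05).

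Of 20 retinol and retinal dehydrogenases and reductases, 10 were tested, and 5 rose and 4 fell after siYAP. RDH10, the main retinol dehydrogenase of retinoic acid synthesis, rose to 14.1 ± 0.966 CPM after siYAP against 10.4 ± 1.40 CPM after siNT (SD, n = 3 each; log2 0.44 ± 0.13, SE; adjusted p = 0.00184), and DHRS7 rose as well (log2 1.18 ± 0.07). ADH5 and RDH11 fell after siYAP (log2 -1.23 ± 0.05 and -0.55 ± 0.04). After siTAZ 1 of the 10 passed, DHRS7 (log2 0.24 ± 0.07). Of 5 retinal oxidation and carotene cleavage genes, 4 were tested; 2 rose and 2 fell after siYAP, and 1 fell after siTAZ. That gene was AOX1, an aldehyde oxidase, with 81.2 ± 2.45 CPM after siYAP, 45.5 ± 2.68 CPM after siTAZ and 133 ± 1.33 CPM after siNT (log2 -0.71 after siYAP and -1.55 after siTAZ).

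Retinoic acid is cleared by CYP26 enzymes. CYP26B1 had 3.24 ± 0.616 CPM after siYAP, 9.09 ± 2.41 CPM after siTAZ and 11.9 ± 2.47 CPM after siNT (SD, n = 3 each). It fell after siYAP (log2 -1.86 ± 0.19, SE; adjusted p = 6.79e-13) and was not called after siTAZ (log2 -0.39 ± 0.16; adjusted p = 0.0602). CYP26A1, whose promoter repeat is printed above, had 0, 6 and 0 counts after siYAP, 3, 3 and 1 after siTAZ, and 0, 0 and 0 after siNT, too few to test. Of the 7 genes on the retinoic acid clearance list 4 were tested, and CYP26B1 was the only CYP26 gene among them. After siYAP CYP26B1 was the 1 that fell, and 3 rose, CYP1B1, CYP2S1 and CYP3A5. After siTAZ 1 rose. CYP1B1, a cytochrome P450 that can act on retinoids, rose after both (log2 0.69 ± 0.12 and 1.15 ± 0.12).

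Among 21 tested receptors and cofactors of 25 listed, 7 rose and 5 fell after siYAP, and 3 rose and 10 fell after siTAZ. RXRA, a partner of the retinoic acid receptors, fell to 41.9 ± 0.630 CPM after siYAP and 47.1 ± 2.12 CPM after siTAZ, against 55.6 ± 2.18 CPM after siNT (SD, n = 3 each; log2 -0.41 ± 0.07 and -0.24 ± 0.06, SE). RXRB was not called in either (log2 -0.05 ± 0.06 and 0.10 ± 0.06). The orphan receptors NR2F2 and NR2F1, which can occupy the same DNA repeats, fell after siYAP (log2 -2.44 ± 0.04 and -1.99 ± 0.08) and after siTAZ (log2 -0.51 ± 0.03 and -1.08 ± 0.07). NCOA1, a coactivator, rose in both (log2 0.66 ± 0.06 and 0.23 ± 0.06), and NRIP1, a corepressor induced by retinoic acid, fell after siTAZ (log2 -0.76 ± 0.05).

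**Figure D4:**
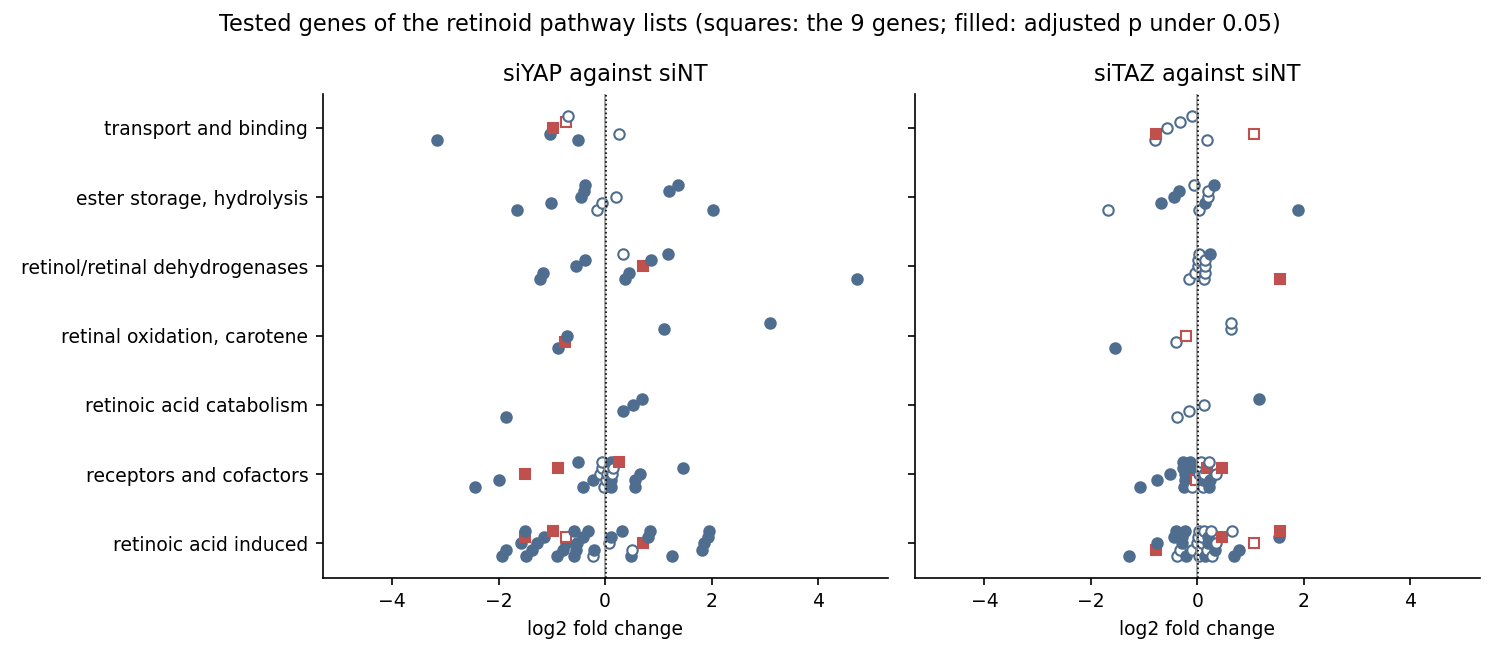
Log2 fold changes after siYAP (left) and siTAZ (right), each against siNT, of the tested genes of 7 retinoid pathway lists; squares are the genes described here, filled symbols passed at an adjusted p under 0.05, and the dotted line is the median of all genes tested. Called genes after siYAP lie on both sides of 0 in each list except transport and binding, where 0 of the called genes are higher.

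Of 45 retinoic acid-induced genes other than the 9, 31 were tested, and 10 rose and 18 fell after siYAP (median log2 fold change -0.41, beside 0.02 over all genes, of which 67.1% were called). After siTAZ 7 rose and 8 fell (median 0.06, beside 0.01 over all genes, of which 34.6% were called). This list too was chosen with earlier results of these data known. GPRC5A, known as retinoic acid-induced protein 3, fell after both silencings (log2 -1.58 ± 0.04 and -1.28 ± 0.04). KLF4 and BHLHE40, both transcription factors, rose after siYAP (log2 1.93 ± 0.11 and 1.95 ± 0.06). Genes of this list, whether higher or lower, may also answer to many other signals. RARRES2, the chemerin gene, had 2.68 ± 0.855 CPM after siYAP, 20.3 ± 2.54 CPM after siTAZ and 7.03 ± 1.22 CPM after siNT (SD, n = 3 each), falling after siYAP (log2 -1.38 ± 0.19, SE) and rising after siTAZ (log2 1.53 ± 0.15) as RARB did. Genes with the same spacer-5 repeat in a promoter window numbered 29, of which 10 were tested; 5 were higher and 2 lower after siYAP, and 3 were higher and 0 lower after siTAZ, with RARB among them.

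Of 25 other quiescent stellate genes 18 were tested, and 6 rose and 9 fell after siYAP, while 2 rose and 3 fell after siTAZ, beside 67.1% and 34.6% of all genes called. RGS5, a pericyte regulator of G protein signalling, rose after siYAP (log2 2.23 ± 0.15), as did PLIN2, while IGFBP3 and GATA4 fell (log2 -0.86 ± 0.09 and -0.46 ± 0.08). Genes too low for naming by rule also changed after siYAP, and those given were chosen after their values were seen. CYGB, HGF and RELN rose (log2 5.15 ± 0.73, 3.28 ± 0.24 and 2.37 ± 0.19), and PPARG and ADAMTSL2 fell (log2 -1.85 ± 0.56 and -1.82 ± 0.65). NGFR, ETS1 and ECM1 fell after siTAZ (log2 -1.37 ± 0.15, -0.35 ± 0.03 and -0.18 ± 0.05). NGFR and ETS1 also fell after siYAP (log2 -0.42 ± 0.14 and -0.12 ± 0.03), where ECM1 was not called (log2 0.01 ± 0.05). BAMBI, a pseudoreceptor that dampens TGF-beta signalling, fell after siYAP (log2 -1.07 ± 0.10) and rose after siTAZ (log2 0.30 ± 0.09). Of 20 genes of activated stellate cells 8 rose and 12 fell after siYAP, and 11 rose and 6 fell after siTAZ, beside the same shares of all genes. After siYAP the actin-binding TAGLN, the matricellular CCN2 and fibronectin, FN1, fell (log2 -2.80 ± 0.04, -2.46 ± 0.05 and -1.90 ± 0.06), and COL6A1, TIMP1 and S100A6 rose (log2 1.75 ± 0.03, 1.35 ± 0.04 and 1.25 ± 0.05). After siTAZ the collagen genes COL1A2 and COL3A1 rose (log2 1.415 ± 0.04 and 0.83 ± 0.03), and POSTN, LOX and VIM fell (log2 -0.49 ± 0.13, -0.44 ± 0.04 and -0.40 ± 0.03). After siYAP COL1A2 and LOX rose (log2 1.07 ± 0.04 and 0.46 ± 0.04), and COL3A1, POSTN and VIM fell (log2 -0.64 ± 0.03, -1.67 ± 0.15 and -0.13 ± 0.03). ACTA2, smooth muscle actin, rose after both (log2 0.65 ± 0.08 and 1.66 ± 0.07).

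The tested genes most alike to each receptor over the 9 libraries, by Pearson's r of log2 CPM among 10420 genes, were CAPZB (r = 0.996) and TMEM19 (0.992) for RARB, MARCHF5 (0.988) and NDUFA9 (0.987) for RARG, and CD81 and CCNY (both 0.985) for RARA. For DHRS3 they were ZNF641 (0.958) and GARS1 (0.950), for ALDH1A3 NUP107 (0.974) and WDR47 (0.968), for CRABP2 C8orf82 (0.958) and NUDC (0.955), and for STRA6 METTL17 and XPA (both 0.941). The libraries fall into 3 groups, so these values mainly rank how alike the group means are.

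Markers of other cell types also differed between the groups. Their called counts stand beside 33.8% of all genes tested higher and 33.4% lower after siYAP. After siTAZ these shares were 16.4% and 18.2%. The 8 macrophage and leukocyte markers summed to 129 to 135 CPM after siYAP, 23.5 to 25.01 CPM after siTAZ and 34.8 to 38.2 CPM after siNT. Of the 5 tested, CD68 had the highest average level (log2 CPM 5.65). After siYAP 3 rose, CD68, CSF1R and ITGAM (log2 2.365 ± 0.07, 1.79 ± 0.39 and 3.47 ± 0.47). PTPRC fell (log2 -4.09 ± 0.68) and CD14 was not called (log2 0.04 ± 0.14), so this sum mixes opposite changes. After siTAZ 0 rose and 2 fell. The 8 hepatocyte markers summed to 12.9 to 16.1 CPM after siYAP, 1.14 to 2.02 CPM after siTAZ and 1.90 to 2.06 CPM after siNT, with 1 of 8 tested, SERPINA1, which rose after siYAP and was not called after siTAZ, and ALB at 0 counts in 8 of the 9 libraries. The 6 cholangiocyte markers summed to 79.9 to 83.3 CPM after siYAP, 68.4 to 72.1 CPM after siTAZ and 50.1 to 52.7 CPM after siNT, and the 7 endothelial markers, with LYVE1 at 0, to 12.6 to 16.3 CPM after siYAP, 7.85 to 9.06 CPM after siTAZ and 13.2 to 16.2 CPM after siNT. Of 5 endothelial markers tested, PECAM1 and KDR rose after siYAP (log2 3.60 ± 0.36 and 1.25 ± 0.34) and CDH5, VWF and TEK fell (log2 -3.81 ± 0.40, -2.22 ± 0.74 and -0.61 ± 0.19), so their sum hides opposite changes; after siTAZ 0 rose and 3 fell. Of 2 cholangiocyte markers tested, 1 rose and 0 fell after either silencing. The 8 mesothelial and portal fibroblast markers summed to 1333 to 1400 CPM after siYAP, 1511 to 1547 CPM after siTAZ and 1709 to 1770 CPM after siNT; of 6 tested, 1 rose and 3 fell after siYAP, and 0 rose and 4 fell after siTAZ. The part of these markers in the retinoid gene results was not tested.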

How the data were processed

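The 9 LX2 libraries (3 siYAP, 3 siTAZ, 3 siNT) were analysed from the deposited counts, which are whole numbers of reads for each Ensembl gene ID and are not normalised. Grouping followed the sample labels; the series' design text lists siNT where siTAZ would stand. Per the submitters' processing notes, the authors' tools included HTSeq, STAR 2.5.0c, Picard, Trim Galore and SAMtools; neither strand setting nor annotation release is stated. Those notes list the mouse build mm10 although the gene IDs are all human, so the build behind the counts is not known. Summary lines for reads in no gene (4.73% to 7.49%) and ambiguous reads (6.33% to 6.91%) stayed out of library sizes. Symbols came from a gene name table (25321 IDs) and GENCODE 29 (93 IDs).

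In R 4.3.3, genes were kept by filterByExpr (minimum count 10, minimum total count 15), scaled by TMM and fitted over all 9 libraries with edgeR 4.0.16 (robust quasi-likelihood, no block). Library sizes ran from 16498508 to 18752805 counts. The p-values were adjusted over 15560 genes by Benjamini-Hochberg. The fit was tested on simulated data. CPM divide counts by the TMM-scaled library size. Alternatives used RLE or upper-quartile scaling, other filters, a replicate block, the compared groups alone, DESeq2 1.42.0, limma-voom (limma 3.58.1), each library left out and an adjusted p under 0.01. The 9 genes and all gene lists were chosen with earlier results of these data known. From each pathway list, genes named were among up to 3 called in each direction with the largest changes at an average log2 CPM of at least 3, plus 10 genes chosen in any case; some genes under this rule are not reported here. Promoter sequences are RefSeq's on GRCh38.p14.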

Additional observations from a re-analysis of the deposited data

Results flagged for a closer look

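The effects of the silencings differed by the direct test of siTAZ against siYAP for 5 of the 7 tested genes, with log2 differences of 1.96 for RARB, 1.79 for STRA6, 0.84 for RARG, 0.84 for DHRS3 and 0.53 for ALDH1A3. Among all genes tested, 66.2% were called in that comparison. Of these 5 genes only RARB was called in opposite directions against siNT, lower after siYAP and higher after siTAZ.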

How the results depend on the processing

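Of the 15 calls for single retinoid genes, 12 were kept in every alternative that gave a value, out of 18 run. For 1 of the 12, STRA6 in siTAZ against siYAP, the stricter filter (CPM of at least 1 in 3 libraries) gave none, since STRA6 did not pass it. The calls not kept are given above: DHRS3 after siYAP, CRABP2 after siTAZ and RARA after siTAZ; the causes were not tested. The number of these genes called was 5 to 6 for siYAP against siNT, 3 to 4 for siTAZ against siNT and 4 to 5 for siTAZ against siYAP. The log2 fold change of RARG after siTAZ, which was not called, lay between -0.133 and 0.0121 when each library was left out in turn. At an adjusted p under 0.01, DHRS3 after siYAP and RARA after siTAZ were no longer called.

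Libraries with the same replicate number did not deviate together (r = -0.0305 to 0.0136 over 9 pairs, and 0 of 9 libraries correlated best with its own number in both other groups). With the replicate number as a block, 6, 4 and 5 of the retinoid genes were called in the 3 comparisons, as without it, and 10434, 5413 and 10268 of all genes. Depth limits STRA6, with 2 to 28 counts per library, and leaves LRAT, ALDH1A1 and CYP26A1 untested.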

Other observations

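Large changes after siYAP were also seen in retinoid pathway genes too low for the naming rule, and those given were chosen after their values were seen. ALDH8A1 and CES1 rose (log2 3.10 ± 0.65 and 2.02 ± 0.67, SE) and PNPLA3 fell (log2 -1.65 ± 0.28). AKR1B10, an aldo-keto reductase that reduces retinal, had 58, 79 and 67 counts after siYAP, 6, 1 and 1 after siTAZ, and 3, 3 and 1 after siNT. Its log2 fold change after siYAP was 4.72 ± 0.68 (SE; 95% interval 3.36 to 6.08; edgeR, adjusted p = 1.87e-12), a size poorly determined because the siNT libraries are at or under 3 counts. RBP7, a cellular retinol-binding protein, had 7, 8 and 2 counts after siYAP, 35, 49 and 37 after siTAZ, and 65, 41 and 40 after siNT, with a log2 fold change of -3.16 ± 0.48 after siYAP (adjusted p = 1.34e-09).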
